A study of Mus musculus with 12 samples.

Results

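The ribosome footprints of Arf-/- -shSCR MEFs were compared with those of WT-shSCR MEFs, using 4 of the 12 libraries of the series, 2 replicates in each group. MEFs are fibroblasts grown from mouse embryos. The cells of all 4 libraries were at passage 4, were labelled embryonic fibroblast and carried a lentivirus with a scrambled short hairpin RNA (shSCR). The groups thus differed in genotype and in the mouse strain given for it. The labels give C57BL/6J for WT and B6.129X1-Cdkn2atm1Cjs/KaiJ for ArfKO, while the study's methods give B6129SF2/J for WT, and strain and genotype cannot be told apart here. The knockout removes the first exon of the ARF transcript in every cell and leaves INK4A, the other product of Cdkn2a, in place. The 4 RNAseq libraries of the same 2 groups served for comparison.

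A ribosome shields a short stretch of the mRNA it is reading from nuclease, and in ribosome profiling these stretches, the footprints, are sequenced. A gene's share of all footprints therefore stands in for the share of the cell's elongating ribosomes that sit on its mRNA. It does so only as far as the gene's footprints are recovered and can be aligned to that gene alone. A long coding sequence holds more ribosomes than a short one for the same number of proteins made, so a share of footprints is a share of the effort and not of the molecules. ARF is a tumor suppressor of the nucleolus that is known to release p53 from MDM2 and to restrain ribosome production. The mRNAs of ribosomal proteins and of several translation factors begin with a C followed by a run of pyrimidines, the 5′-TOP motif, through which their translation is turned up or down together.

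The starts of annotated coding transcripts are shown for members on which the comparison turns, read from GENCODE M21 (GRCm38) with the opening run of pyrimidines in capitals and 20 bases in all, 5′ to 3′. Where a gene has several coding transcripts, the one with the longest opening run is shown. Rpl30 and Rps24 encode ribosomal proteins with large footprint rises, Rps2 one with a smaller rise, and Eef1b2 and Pabpc1 a translation factor and the poly(A)-binding protein. Lamb1, a laminin chain of the basement membrane, is shown because its annotated start also opens with pyrimidines while its footprints fell. The genes lie on GRCm38 at chr15:34440505-34443640 (Rpl30, minus strand), chr14:24487125-24496959 (Rps24, plus), chr17:24718116-24721929 (Rps2, plus), chr1:63176825-63180486 (Eef1b2, plus), chr15:36595661-36609668 (Pabpc1, minus) and chr12:31265234-31329644 (Lamb1, plus).
Rpl30: CCTTTCTCgctccccggcca
Rps24: CTCTTTTCCTCCTCTCCagc
Rps2: CTTCTTCTTCTTCgggagaa
Eef1b2: CTTTTTTTCCCTCagcgctg
Pabpc1: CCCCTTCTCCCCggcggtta
Lamb1: CTTCTTTgggccggtgggct

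The WT-shSCR replicates held 3109431 and 2544319 footprint counts and the Arf-/- -shSCR replicates 5100670 and 5157572, so the knockout side was the more deeply read. The RNAseq libraries held 2803035 and 1578627 counts for WT-shSCR and 2709338 and 2411925 for Arf-/- -shSCR. HTSeq left uncounted the 48.35% to 52.92% of alignments in these footprint libraries that were not unique, and genes with near-identical copies, such as histones, ribosomal proteins with pseudogenes and the actins, are therefore uncertain in level. In the 4 RNAseq libraries of the same groups 80.34% to 81.38% of alignments were not unique. Alignments outside annotated coding sequence numbered 314.3 to 486.9 per 100 gene counts there, against 23.2 to 34.1 for footprints. RNA changes, and comparisons of footprints with RNA, therefore rest on a smaller counted part of the alignments. Values below are shares of a library's counts on genes or CPM (counts scaled to the TMM-corrected library size), and both are relative, so that a rise of some genes is met by a fall of others and the total number of ribosomes at work is not measured. Cdkn2a, on chromosome 4 (89274471 to 89294653, minus strand), had 0.00917% and 0.0066% of WT-shSCR footprints and 0.00404% and 0.00345% of Arf-/- -shSCR footprints. Its footprint log2 fold change was -1.10 ± 0.19 (SE, adjusted p = 4.67e-05, edgeR quasi-likelihood test), but counts per gene do not separate ARF from INK4A and the deleted exon is only a part of what was counted, so this is no clean check of the labels.

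The fibroblast marker list held 4.88% and 4.70% of footprints in WT-shSCR and 3.77% and 3.72% in Arf-/- -shSCR, and of its 14 tested members 5 rose, 3 fell and 6 were not called. Collagen and fibronectin genes stood among the most translated genes in all 4 libraries, while Pdgfra, a receptor of mesenchymal cells, had 12 and 13 counts in WT-shSCR and 118 and 111 in Arf-/- -shSCR. Decorin (Dcn), a proteoglycan of connective tissue fibroblasts, had 4 and 11 counts against 76 and 56. Endothelial, skeletal muscle and neural marker lists each held at most 0.0787% of footprints in any library, with 2, 3 and 3 members above the filter on low counts. The myeloid list is given with the lysosomal genes further down.

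Of 10737 genes tested, 1027 rose and 961 fell in Arf-/- -shSCR at an adjusted p under 0.05, which is 18.5% of all genes tested, 9.57% upward and 8.95% downward. Changes of at least 2-fold were called for 253 genes upward and 418 downward, and the median log2 fold change over all genes was -0.0009. The called genes that rose held 23.4% of footprints in WT-shSCR and 33.0% in Arf-/- -shSCR, as means of 2 libraries. Those that fell went from 30.2% to 20.2%. Both sets were chosen by their change in these same libraries, so the directions follow from the choice and the sizes may be inflated by it. The calls rest on all 4 libraries. A fit without 1 of them leaves 1 library in a group, and edgeR then pooled the spread over genes to unlike degrees. Its prior degrees of freedom fell from 29.1 to 2.9 without either WT-shSCR replicate and were infinite without either Arf-/- -shSCR replicate. The numbers of calls in these fits therefore cannot be compared with each other. Leaving out WT-shSCR replicate 1 or replicate 2 left 0 calls in edgeR (2467 and 2553 genes at an unadjusted p under 0.05) and 625 and 679 in DESeq2, leaving out Arf-/- -shSCR replicate 1 or 2 left 1193 and 1164 in edgeR, and of the calls with a value in the fit 1969 of 1972, 1972 of 1973, 1976 of 1977 and 1979 of 1979 kept their sign in the same order. This loss without either WT-shSCR library applies to every footprint call below. With all 4 libraries DESeq2 called 627 genes higher and 523 lower.

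Another view of the size of the change is the percentage of footprints that would have to move to other genes to turn one library into another. It was 5.63% between the WT-shSCR replicates, 4.48% between the Arf-/- -shSCR replicates and 13.5% to 13.8% across the 4 pairs of one library from each group. In the RNAseq libraries the same measure was 8.73% and 8.87% within the groups and 11.9% to 14.3% between them. The groups stood further apart than replicates in both assays. Each RNAseq library held fewer counts than the footprint library of the same group and replicate number.

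The heaviest single use of ribosomes was thrombospondin 1 (Thbs1), a secreted matrix glycoprotein encoded on chromosome 2 (118111876 to 118127133, plus strand). It took 3.44% and 3.38% of footprints in WT-shSCR and 2.00% and 2.13% in Arf-/- -shSCR, with a log2 fold change of -0.74 ± 0.04 (SE, adjusted p = 6.87e-15). It ranked first in both groups, but its lead was much reduced. Fibronectin (Fn1, chromosome 1, 71585520 to 71653200, minus strand), which links cells to the matrix, fell from 1.59% and 1.60% to 0.808% and 0.850% and went from the 3rd to the 7th place. Beta-actin (Actb) was second in both groups, with 1.73% and 1.60% against 1.88% and 1.93%. The groups did not overlap in CPM for Thbs1 or Fn1, a separation that 57.4% of all genes tested also showed in one direction or the other.

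The plot of the 10 genes with the largest share shows the exchange at the top. Acta2 (smooth muscle actin) had 1.11% and 1.13% of footprints against 1.25% and 1.27% (log2 fold change 0.15, adjusted p = 0.0167) and Actg1 (gamma-actin) 1.13% and 1.10% against 1.28% and 1.24% (0.16, adjusted p = 0.011). The much less abundant skeletal muscle actin Acta1 fell, from 84.4 and 74.8 CPM to 44.8 and 47.7 (-0.79, adjusted p = 0.000965). Vim (vimentin, adjusted p = 0.21), Myh9 (a non-muscle myosin, adjusted p = 0.581) and Tagln (transgelin, adjusted p = 0.836) did not pass the test, and Flna (filamin A) fell. The elongation factor gene Eef1a1, which delivers aminoacyl-tRNA to the ribosome, moved from the 9th to the 6th place, with 0.703% and 0.673% against 0.889% and 0.886%. Pcnt (pericentrin, a centrosome protein) differed widely between replicates, with 0.467% and 0.145% in WT-shSCR and 0.641% and 0.457% in Arf-/- -shSCR, and although it was called (adjusted p = 0.00963) its groups overlapped.

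**Figure D1:**
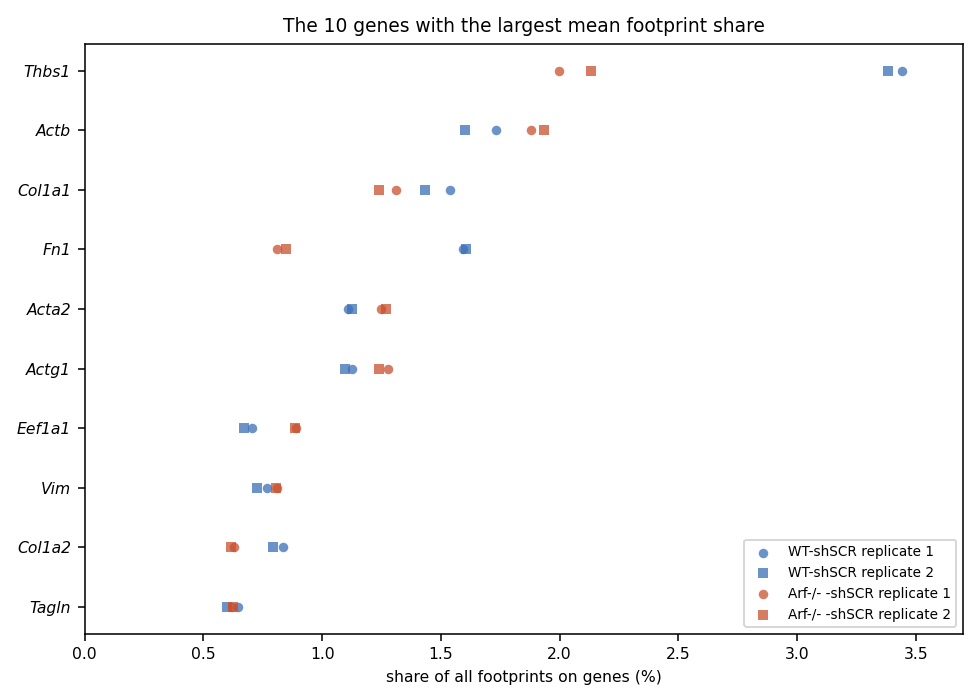
Share of all footprints on genes (%, linear axis) for the 10 genes with the largest mean share, one point per library, blue for WT-shSCR and red for Arf-/- -shSCR, circles for replicate 1 and squares for replicate 2. Thbs1 sits at 3.38% to 3.44% in WT-shSCR and at 2.00% to 2.13% in Arf-/- -shSCR, and Fn1 separates in the same direction.

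Grouping genes into 35 lists that share no member shows where the ribosomes went. These lists together held about as many footprints as all other genes, whose total in Arf-/- -shSCR was 1.002 times that in WT-shSCR. The plot of list shares gives each list in each library. Counts of members called in a list are to be read beside the 9.57% of all genes tested that rose and the 8.95% that fell. The large losses were in secreted matrix and the large gains in the translation machinery itself.

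**Figure D2:**
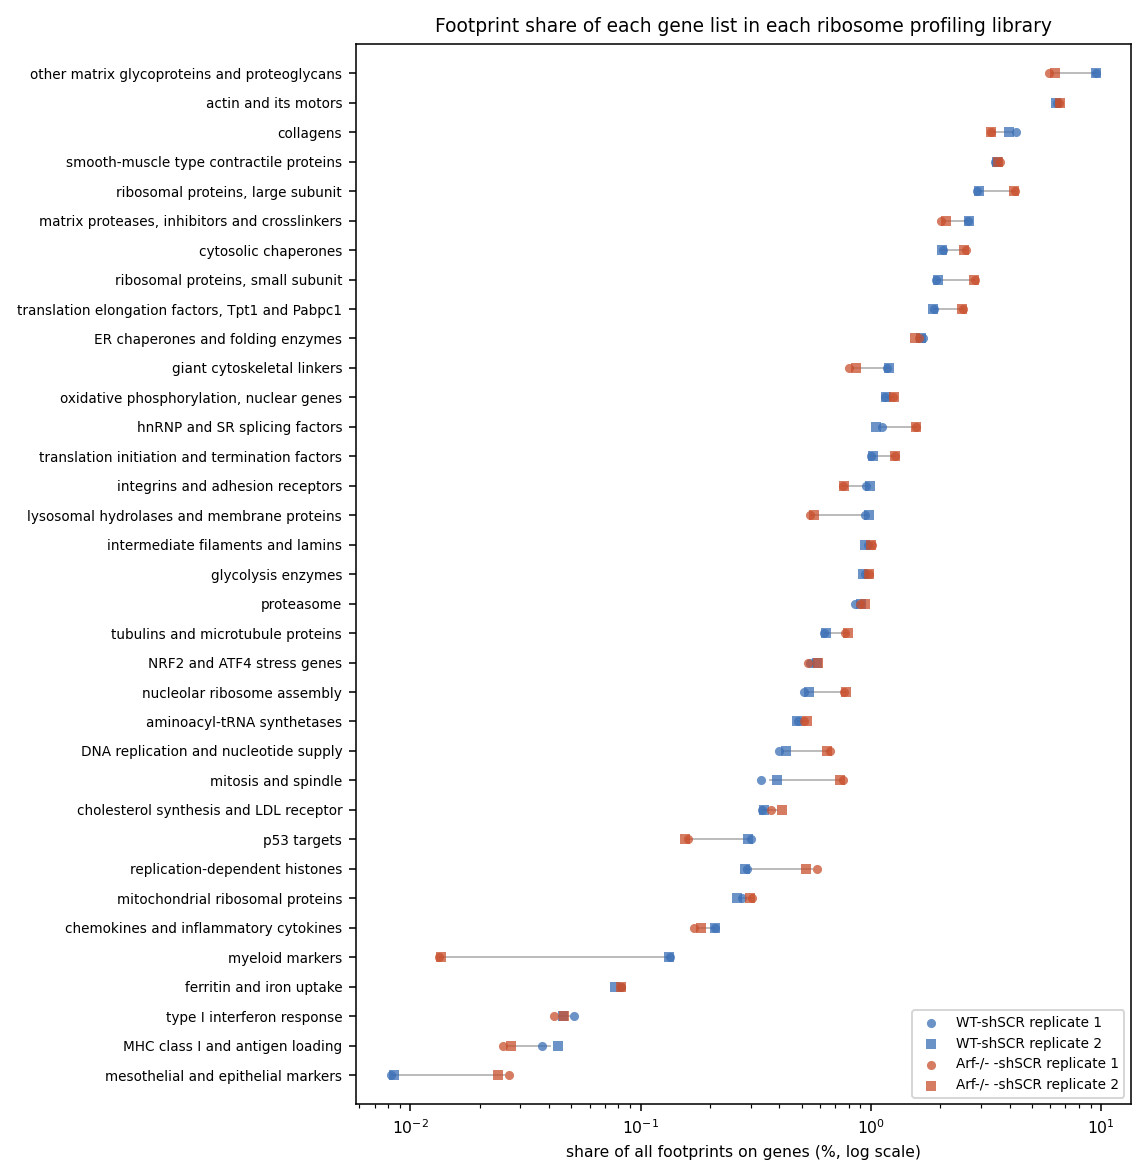
Share of all footprints on genes (%, log axis) of each of 35 gene lists, one point per library, blue for WT-shSCR and red for Arf-/- -shSCR, with a grey line joining the group means. Both ribosomal protein lists lie to the right in Arf-/- -shSCR (4.24% and 4.18% against 2.89% and 2.95% for the large subunit), the matrix lists lie to the left, and myeloid markers move furthest.

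Ribosomal proteins gained the most points of share among the lists. Those of both subunits together took 4.81% and 4.89% of footprints in WT-shSCR and 7.06% and 6.97% in Arf-/- -shSCR, a difference of 2.17 percentage points. Of the 86 such genes in the files, 81 passed the filter on low counts, and 79 of these rose and 0 fell, against 9.57% of all genes tested that rose. Their median log2 fold change was 0.51, and 5 members were below the filter. The exceptions among those tested were Rpl36al (0.23, adjusted p = 0.136) and Rps27l (-0.05, adjusted p = 0.82), both relatives of a ribosomal protein encoded by another gene. Counted per annotated coding length, ribosomal proteins went from 11.8% and 11.99% to 16.1% and 15.9%. This is only a rough stand-in for a share of the protein molecules made. It takes every mRNA to be read at the same speed and its footprints to be recovered alike, which was not tested.

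Rpl3, a core protein of the large subunit (chromosome 15, 80077791 to 80091868, minus strand), had 1218 and 1176 CPM in WT-shSCR and 1939 and 1832 in Arf-/- -shSCR (log2 fold change 0.66 ± 0.07, SE, adjusted p = 1.35e-08). Rps4x of the small subunit had 881 and 908 CPM against 1465 and 1499 (0.73, adjusted p = 4.27e-09). Rpl30, whose transcript start is shown above, had 377 and 382 CPM against 675 and 690 (0.85, adjusted p = 8.18e-09). In all of these both knockout libraries stood above both WT libraries by much more than the replicates differed. Rps24 (0.66), Rpl10 (0.62), Rpl23a (0.56) and Rpl22 (0.51) rose by similar amounts, and Rps2 by less (0.34, adjusted p = 0.00219).

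Of the lists of factors that work with the ribosome, the elongation factors rose throughout and the others in part or little. All 13 genes of elongation factors, Tpt1 and Pabpc1 rose, from 1.89% and 1.86% to 2.51% and 2.49% of footprints. Eef1b2, which recharges the elongation factor with GTP, had 614 and 566 CPM against 960 and 892 (log2 fold change 0.65, adjusted p = 4.15e-07). Tpt1 (chromosome 14, 75845093 to 75848525, plus strand), which encodes translationally controlled tumor protein, had 687 and 687 against 1088 and 1000 (0.60 ± 0.08, SE, adjusted p = 7.19e-07). Pabpc1 rose by 0.44, Eef1a1 by 0.35, Gnb2l1 (the ribosome scaffold RACK1) by 0.37 and Eef2, the translocase, by 0.21. Of 43 initiation and termination factors 16 rose and 0 fell, including the helicase Eif4a1 (1593 and 1549 CPM against 2063 and 2154) with Eif4g2 (0.55) and Eif4b (0.51). The other 27 of the 43 did not pass the test. Of 78 proteins of the mitochondrial ribosome 5 rose and 0 fell, a smaller share than the 9.57% of all genes that rose, and among 23 aminoacyl-tRNA synthetases 3 rose and 1 fell, which is near that share.

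The 77 tested genes of a published list of known 5′-TOP mRNAs, which the study used, all rose, with a share of 5.77% and 5.82% in WT-shSCR and 8.28% and 8.19% in Arf-/- -shSCR. Most of them (70 of 77) are ribosomal proteins already counted above, and the other 7 also rose, so the list adds little to that count. An opening C with a pyrimidine run of at least 5 bases in an annotated coding transcript was present in 22 of the 81 ribosomal protein genes tested (27.2%), against 6.15% of the 10705 genes tested that have a coding transcript. The annotated start can differ from the one a cell uses, so that absence of the run says only that these letters are not at the annotated end (Tpt1 is a case). Ribosomal protein genes with and without the run had median log2 fold changes of 0.52 and 0.50. Outside these lists, 633 genes held the run, and 48 of them rose and 58 fell, with a median of -0.05. Of the 9984 genes without it 891 rose and 900 fell, with a median of -0.004. Both stand near the 9.57% of all genes tested that rose and the 8.95% that fell. A run at an annotated start need not be at the start that the cell uses. Lamb1, which holds the run, fell (-0.53, adjusted p = 6.82e-06).

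Genes that build the ribosome in the nucleolus followed in part. Of 55, 30 rose and 0 fell, against 9.57% of all genes tested that rose and 8.95% that fell. The list went from 0.513% and 0.537% to 0.761% and 0.779% of footprints. Nucleolin (Ncl), which acts in the making of rRNA, had 944 and 1019 CPM against 1689 and 1741 (log2 fold change 0.80, adjusted p = 4.95e-10). Nucleophosmin (Npm1), an abundant nucleolar chaperone to which ARF binds, had 1247 and 1143 against 1979 and 2002 (0.74, adjusted p = 1.43e-09). Nop58, a core protein of the snoRNPs that guide rRNA methylation, rose by 0.70 and the helicase Ddx21 by 0.64. Splicing factors of the hnRNP and SR families rose in 24 of 34 cases and fell in 0, from 1.11% and 1.06% to 1.56% and 1.57%, including Hnrnpa3 (0.74), Hnrnpu (0.61) and Hnrnpk (0.55). Among cytosolic chaperones 18 of 23 rose, including Hsp90aa1 (0.42), Hsp90ab1 (0.28) and Hspd1 (0.53), and Hspb1, a small heat shock protein, was the one that fell (-0.48, adjusted p = 0.000173). Chaperones of the ER, which fold secreted proteins, were called downward in 7 of 31 cases and upward in 0. Their median log2 fold change was -0.095, and their share in Arf-/- -shSCR was 0.945 times that in WT-shSCR.

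Cell division genes rose. Of 56 genes of mitosis and the spindle 54 rose and 0 fell, against 9.57% of all genes tested that rose. Their share went from 0.334% and 0.393% to 0.753% and 0.731%. Ube2c, which passes ubiquitin to mitotic cyclins, had 70.7 and 76.4 CPM against 197 and 182 (log2 fold change 1.37, adjusted p = 4.75e-09). Anln (anillin of the contractile ring) had 155 and 180 against 351 and 372, and Cdk1, the mitotic kinase, 179 and 213 against 377 and 350. The members not called were Pttg1 (0.41, adjusted p = 0.528) and Ckap2 (0.43), the latter named after its value was seen. DNA replication and nucleotide supply contributed 28 of 49 genes upward and 0 downward, among them Top2a (0.94), Rrm1 (0.79), Rrm2 (0.64) and Pcna (0.35). Replication-dependent histones rose in 40 of 51 tested cases, with their share going from 0.289% and 0.284% to 0.581% and 0.523%, and the linker histone Hist1h1b had 262 and 275 CPM against 572 and 546 (log2 fold change 1.06, adjusted p = 4.6e-10).

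Targets of p53 went the other way. Of 36, 21 fell and 0 rose, against 8.95% of all genes tested that fell. The share of the list dropped from 0.303% and 0.293% to 0.161% and 0.155%. Cdkn1a, the cell cycle inhibitor p21, had 567 and 521 CPM in WT-shSCR and 165 and 189 in Arf-/- -shSCR (log2 fold change -1.62 ± 0.10, SE, adjusted p = 1.53e-13). Mdm2, which marks p53 for destruction, had 223 and 214 against 82.4 and 89.2 (-1.35, adjusted p = 1.56e-09). Pmaip1 (-1.81), a trigger of apoptosis, and Ccng1 (-1.19) fell as well, while Trp53 itself rose by 0.42 (adjusted p = 0.00396). Cdkn2b, the neighbor of Cdkn2a that encodes INK4B, had 0.0082% and 0.00629% of footprints against 0.00222% and 0.00258% (-1.62, adjusted p = 2.61e-07).

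**Figure D3:**
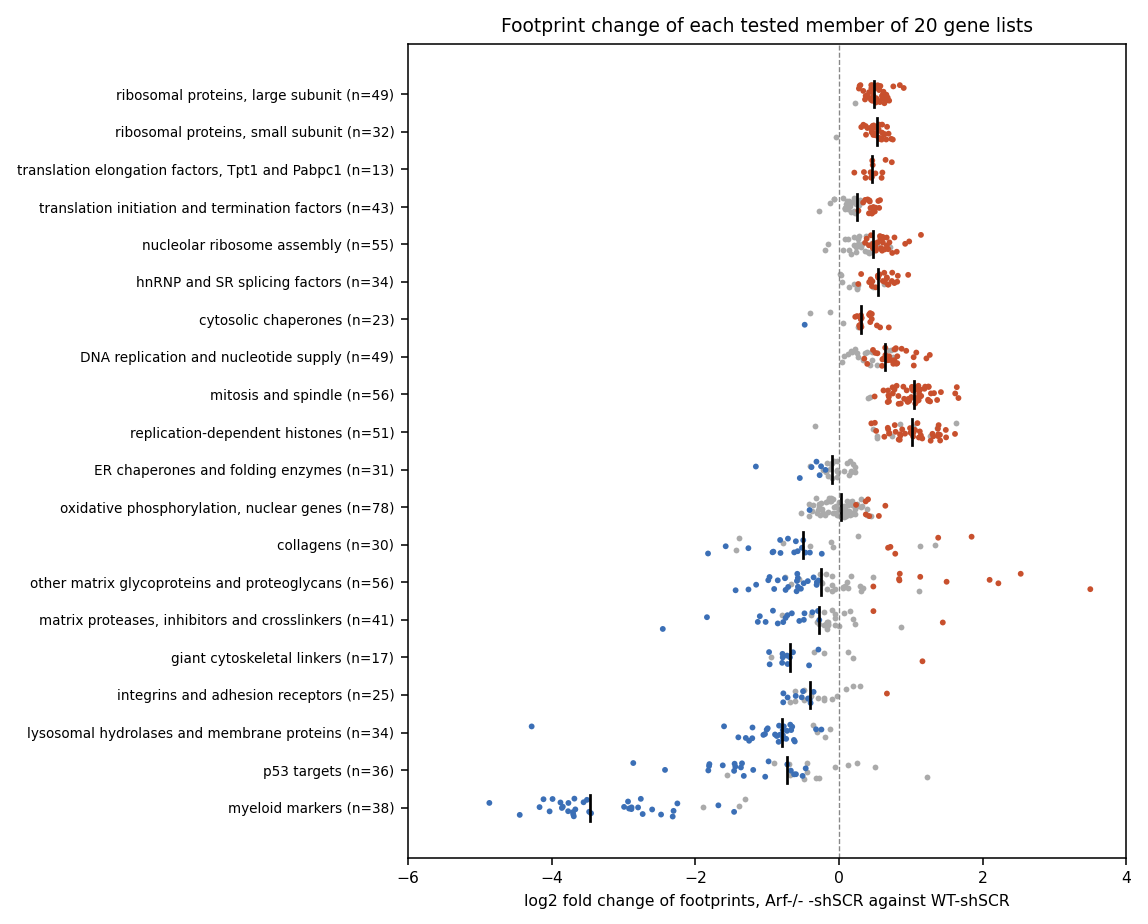
Footprint log2 fold change, Arf-/- -shSCR against WT-shSCR, of every tested member of 20 of the gene lists, one point per gene, red for called higher, blue for called lower and grey for not called at an adjusted p of 0.05, with a black bar at each list's median. Ribosomal proteins form a tight band around 0.51, mitosis genes lie around 1.05 and myeloid markers around -3.46, while the matrix lists spread to both sides.

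The extracellular matrix gave up the most. Matrix glycoproteins and proteoglycans other than collagens took 9.49% and 9.45% of footprints in WT-shSCR and 5.91% and 6.28% in Arf-/- -shSCR, a loss of 3.38 percentage points, of which the 1.35 points of Thbs1 were the largest single part. Of the 56 tested, 22 fell and 10 rose, against 8.95% of all genes tested that fell and 9.57% that rose. Beside Thbs1 and Fn1, those that fell included Fbln2 (fibulin, 0.542% and 0.543% against 0.292% and 0.317%, log2 fold change -0.85), Tnc (tenascin, -0.57) and Sparc (osteonectin, -0.59). They also included Ctgf (-0.35) and Spp1 (osteopontin, 1504 and 1377 CPM against 557 and 646, -1.26). Nov, a matricellular protein, had 49 and 46 counts against 467 and 547 (2.53, adjusted p = 3.15e-11), and Lum (lumican) and Dcn also rose from very low counts. The list therefore fell in total while its low members moved both ways.

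Collagens fell from 4.29% and 4.00% to 3.33% and 3.31% of footprints. Among 30 tested, 16 fell and 5 rose, against 8.95% of all genes tested that fell and 9.57% that rose. Both chains of collagen I fell moderately, with Col1a1 (chromosome 11, 94936224 to 94953042, plus strand) at 1.54% and 1.43% against 1.31% and 1.24% (log2 fold change -0.24, adjusted p = 0.000263) and Col1a2 at -0.41. The basement membrane chains Col4a1 (-0.71) and Col4a2 (-0.81) and the fibril nucleator Col5a1 (-0.82) fell more. Col6a3 rose from 382 and 355 CPM to 945 and 977 (1.38, adjusted p = 7.19e-14). Proteases, inhibitors and crosslinkers that act on the matrix fell in 17 of 41 cases and rose in 2, including Mmp2 (-0.92), Loxl2 (-1.10) and Serpine2 (221 and 242 CPM against 40.7 and 43.8, -2.45). Itgb1, the beta chain shared by many matrix receptors, fell from 3775 and 3742 CPM to 2374 and 2579 (-0.60), within a list of 25 integrins and adhesion receptors in which 10 fell and 1 rose.

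Very long cytoskeletal proteins lost footprints. Of 17 giant linkers, 11 fell and 1 rose (Syne2, 1.16), against 8.95% of all genes tested that fell. Their share went from 1.17% and 1.20% to 0.806% and 0.859%. Flnc and Flna, filamins that crosslink actin, fell by 0.78 and 0.29 on the log2 scale. Plec (plectin) had 650 and 600 CPM against 355 and 368 (log2 fold change -0.79, adjusted p = 5.75e-08). Sptan1 (spectrin, -0.97) and Ahnak (-0.64) fell too. In the RNAseq libraries 1 of these 17 genes was called, downward, and their median RNA log2 fold change was -0.28 against -0.68 for footprints.

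Footprint shares by coding length differed between the groups, though the typical gene of each class moved little. The median log2 fold change was 0.04 for genes under 500 nt, or 0.006 without the ribosomal proteins, and -0.05 for genes over 4000 nt. A share gives most weight to the genes with the most footprints, and the part of the matrix genes in these shifts was not tested. Genes with a coding sequence under 500 nt took 7.30% and 7.27% of footprints in WT-shSCR and 8.65% and 8.44% in Arf-/- -shSCR, and genes over 4000 nt took 16.4% and 16.2% against 13.9% and 13.8%. The mean coding length under a footprint was 2432 and 2425 nt in WT-shSCR and 2219 and 2222 nt in Arf-/- -shSCR. Without the ribosomal proteins the shortest class held 5.13% and 5.07% against 5.50% and 5.32%, so most of its gain was theirs. In the longest class 134 of 927 genes fell and 85 rose, with a median log2 fold change of -0.05, while among the 729 shortest genes that are not ribosomal proteins 95 rose and 56 fell. RNase T1, which was used to make these footprints, cuts after G, and whether the recovery of footprints differed with length between the groups was not tested.

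**Figure D4:**
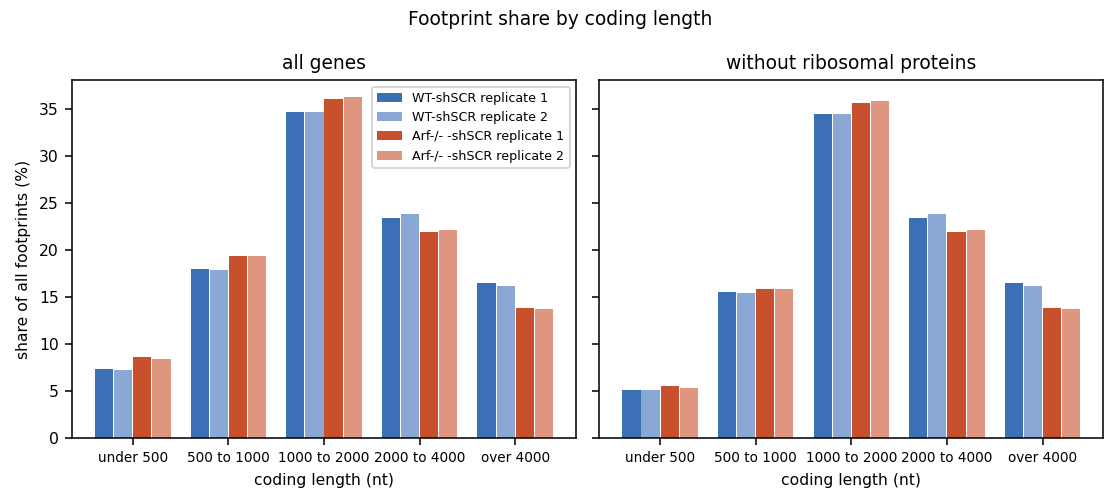
Share of all footprints (%, bars from 0) by class of coding length in nucleotides, one bar per library, blue for WT-shSCR and red for Arf-/- -shSCR, for all genes and without ribosomal proteins. In Arf-/- -shSCR the bars are higher in the 3 shorter classes and lower over 2000 nt, and the class over 4000 nt falls from 16.2% to 16.4% to 13.8% to 13.9%.

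Lysosomal proteins fell nearly throughout. Of 34, 29 fell and 0 rose, against 8.95% of all genes tested that fell. Their share went from 0.940% and 0.983% to 0.545% and 0.568%. Cathepsin D (Ctsd), a protease of the lysosome, had 1607 and 1450 CPM against 506 and 503 (log2 fold change -1.60, adjusted p = 3.84e-16). Ctsb (-1.20), the sphingolipid activator Psap (-0.78) and the membrane protein Lamp1 (-0.63) fell as well. Myeloid markers moved with them. Of 46 in the files, 38 passed the filter, largely on the strength of the WT-shSCR libraries, and 35 of these fell. A gene that passes through 1 group tends to be lower in the other, so this count is no separate support for a fall. Over all members in the files the list went from 0.134% and 0.133% of footprints to 0.0134% and 0.0136%. Lyz2 (lysozyme) had 355 and 356 CPM against 18.8 and 30.2 (-3.86, adjusted p = 6.88e-18), Csf1r, the receptor for macrophage growth factor, 102 and 90.9 against 6.98 and 9.35, and the complement subunit C1qb 62.5 and 63.0 against 4.07 and 3.12. The limit set by the filter applies to direction too, where no myeloid marker that was tested had a log2 fold change above 0. In a bulk culture fewer cells of a type and less RNA per cell cannot be told apart, and the part of the myeloid genes in the fall of the lysosomal genes was not tested. The largest lysosomal fall was that of Ctss (-4.28), a protease known from macrophages and other antigen-presenting cells.

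The 12 largest falls among genes with at least 10 CPM in the higher group were Hk3, Pld4, Slc11a1, Cfp, Slc43a2, Ctss, Alox5ap, Nckap1l, Slc15a3, Tyrobp, C1qb and Fermt3. Their WT-shSCR means were 11.0 to 62.8 CPM and their Arf-/- -shSCR means 0.097 to 3.59 CPM. Several, such as Tyrobp, Slc11a1 and C1qb, are on the myeloid list. The 12 largest rises by the same rule were Upk3b, Lrrn4, Krt8, Upk1b, Aldh1a1, Gdf6, Suv39h2, Nov, Crabp1, Pdgfra, Ska1 and Dcn. Upk3b, a uroplakin found in mesothelium and urothelium, had 0 counts in both WT-shSCR libraries and 111 and 110 in Arf-/- -shSCR, at least 18.3-fold higher against a floor of 3 counts per library. Lrrn4, also known from mesothelium, had 0 and 0 against 76 and 69 (at least 11.99-fold higher) and the simple-epithelium keratin Krt8 6 and 0 against 86 and 107. Of 16 mesothelial and epithelial markers in the files 11 passed the filter, largely on the strength of the knockout libraries. Of these 7 rose and 0 fell, against 9.57% of all genes tested that rose, but the filter favors that direction here. Over all members in the files the list's share was 0.0267% and 0.0241% in Arf-/- -shSCR against 0.00823% and 0.00845% in WT-shSCR. Both lists are small parts of all footprints, and the part of other cell types in these changes was not tested.

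Most footprint changes had RNA changes of the same sign. Of 10659 genes tested in the RNAseq libraries, 420 rose and 425 fell (7.93%, with 3.94% upward and 3.99% downward), and without WT-shSCR replicate 1 or 2 these were 105 and 117 or 112 and 124. Among the 1905 footprint calls also tested for RNA, 1751 (91.9%) had an RNA log2 fold change of the same sign, and 298 of the genes higher in footprints were called higher in RNA while 710 were not called there. For the genes lower in footprints these counts were 310 and 583. Across the 10012 genes in both tests the log2 fold changes had a Pearson r of 0.628 and a Spearman rho of 0.557, given as a description since genes share libraries and depth. The groups of genes differed in how far RNA went with the footprints. RNA calls were made for 46 of 56 mitosis genes upward, for 48 of 51 histones upward, for 21 of 34 lysosomal genes downward, for 27 of 33 myeloid genes downward and for 12 of 35 p53 targets downward. Histone RNA rose by more than histone footprints, with median log2 fold changes of 1.369 and 1.022. The difference was above 0 for 9 of 51 histones, with a median of -0.467, and 0 passed the test of it described below. The histone share of RNA counts was 0.465% and 0.404% in WT-shSCR and differed between the Arf-/- -shSCR replicates, at 0.986% and 1.373%.

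Ribosomal proteins were at the other end. Their median RNA log2 fold change was -0.004 beside 0.51 in footprints, with 0 RNA calls upward and 1 downward, and their share of RNA counts was 7.58% and 7.13% in WT-shSCR and 7.78% and 7.38% in Arf-/- -shSCR, where the groups overlapped. In a test of the difference itself, the interaction of assay and genotype over 8 libraries, 22 of 11314 genes were called (0.194%), 10 with a footprint change above the RNA change (0.0884%) and 12 with one below it (0.106%). These few calls moved with single libraries, to 6 and 10 in all without WT-shSCR replicate 1 or 2 and to 51 and 30 without Arf-/- -shSCR replicate 1 or 2, and DESeq2 called 68 and 13. DESeq2 gave an adjusted p to only 1384 genes here, so its calls are not out of the same 11314 genes. Of the 10 upward calls in edgeR, 5 were ribosomal proteins (Rplp0, Rplp1, Rpl41, Rps20 and Rps27a) and 2 were Tpt1 and Eef1b2. The interaction value was above 0 for 81 of the 81 ribosomal proteins tested, with a median of 0.48, against 46.6% of all genes and a median of -0.04. Tpt1 had the footprint rise of 0.60 against an RNA change of -0.56 (adjusted p = 0.0269), an interaction of 1.13 ± 0.16 (SE, adjusted p = 0.00257). The ferritin heavy chain Fth1, an iron store under translational control, was called at 1.402, with a footprint change of 0.13 that did not pass the test and an RNA change of -1.31. Tmsb10 and Zdhhc15 complete the upward calls. Zdhhc15 had 12 and 5 footprint counts against 50 and 15 and overlapping groups, and its footprint change, which was not called (1.07, adjusted p = 0.302), was -0.023 without Arf-/- -shSCR replicate 1.

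The 12 genes with an interaction below 0 were 2 collagens (Col14a1 and Col7a1), 1 other matrix gene (Hspg2), 1 giant linker (Plec), 1 integrin (Itga7), 2 myeloid markers (Itgam and Tlr13) and 5 genes outside the lists (Atp6v1c2, Bahd1, Nenf, Spa17 and Stag3). Hspg2 (perlecan of the basement membrane, chromosome 4, 137468769 to 137570630, plus strand) had 0.405% and 0.380% of footprints against 0.243% and 0.245% (log2 fold change -0.71, adjusted p = 1.85e-10), an RNA change of 0.03 and an interaction of -0.77 (adjusted p = 0.0383). Plec had an RNA change of -0.05 and an interaction of -0.77 (adjusted p = 0.0308). Fn1 did not show this pattern, with an RNA change of -1.49 (adjusted p = 7.34e-06) larger than its footprint change and an interaction of 0.49 that did not pass the test (adjusted p = 0.301). Drosha and Vegfa, both named by the study, had interaction values that did not pass the test (0.45, adjusted p = 0.836, and -0.007, adjusted p = 1), beside footprint changes of 0.68 (adjusted p = 0.0274) and -0.24 (adjusted p = 0.393).

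**Figure D5:**
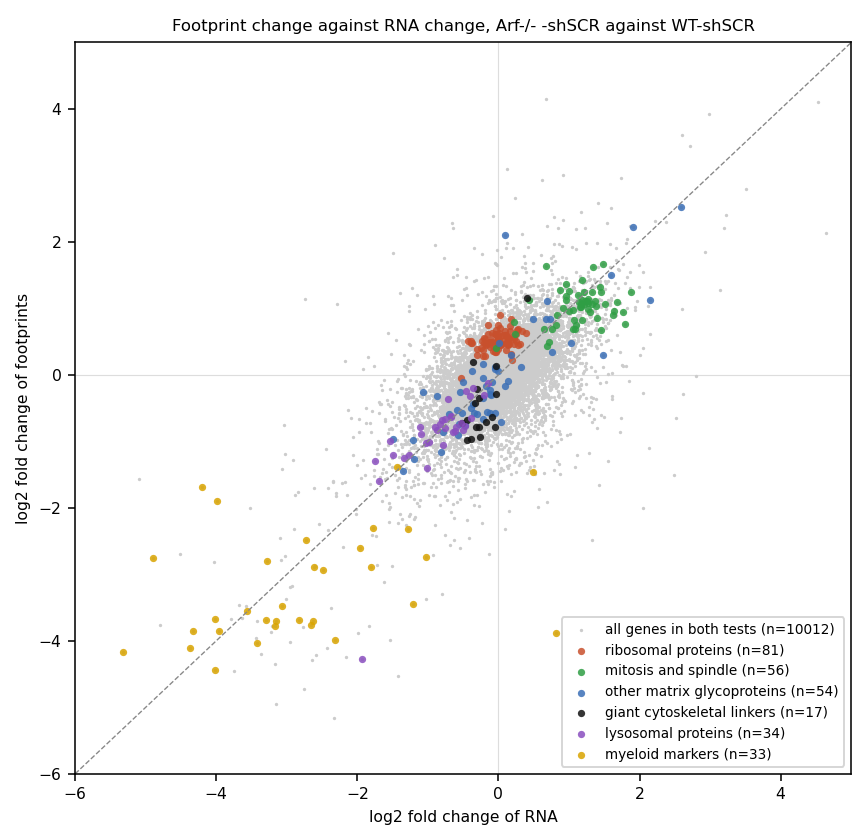
Footprint log2 fold change against RNA log2 fold change, Arf-/- -shSCR against WT-shSCR, for the 10012 genes in both tests (grey), with 6 gene lists in color and a dashed line of equal change. Ribosomal proteins sit above the line at RNA changes around 0 and footprint changes around 0.51, giant linkers sit mostly below it, and mitosis, lysosomal and most myeloid genes lie along it.

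Of the remaining lists, some had few calls and some had many. The share of actin and its motors was 1.035 times as large in Arf-/- -shSCR, with 6 of 42 genes higher and 5 lower, and that of smooth-muscle type contractile proteins 1.031 times, with 4 of 24 higher and 3 lower, and both differences changed sign when the 10 genes with the most footprints were taken out of the total. Glycolysis enzymes had 1 of 16 genes higher and 2 lower, nuclear genes of oxidative phosphorylation 7 of 78 higher and 1 lower, and the proteasome 1 of 38 higher and 3 lower, each near or below the share of calls over all genes. Genes of the NRF2 and ATF4 stress responses were called 6 times in each direction out of 28, more often than the 18.5% of all genes, while the share of the list was 1.0 times that in WT-shSCR, with the amino acid transporter Slc7a5 higher (0.81) and the autophagy receptor Sqstm1 lower (-0.80). Cholesterol synthesis had 6 of 26 higher and 0 lower, the type I interferon response 0 of 16 higher and 1 lower, and chemokines and inflammatory cytokines 4 of 12 in each direction with a share ratio of 0.839. Tubulins and microtubule proteins had 5 of 18 higher and 1 lower and a share ratio of 1.24, intermediate filaments and lamins 4 of 9 higher and 1 lower, MHC class I and antigen loading 0 of 7 higher and 3 lower with a share ratio of 0.651 and a median log2 fold change of -0.74, and ferritin and iron uptake 0 of 6 called.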

How the data were processed

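RNA and footprints came from WT-shSCR and Arf-/- -shSCR MEFs, 2 replicates each. Nothing states that replicates were separate cultures, so p-values measure only the spread between these samples. The authors made footprints with RNase T1, removed rRNA reads, mapped the rest to mm10 (TopHat) and tallied them over annotated coding sequence (HTSeq), per the labels and methods. The submitters' processing notes also name cutadapt, Bowtie2 and UMI-tools, and removal of duplicates is not described in the sources used here, so counting error may be understated. What was deposited is a raw count for each gene symbol, and 5 summary rows per library were removed. Depth is given with the results. A yeast spike-in is not used here.

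Genes kept by filterByExpr were tested with edgeR 4.0.16 in R 4.3.3 (TMM factors, quasi-likelihood F test, Benjamini-Hochberg adjusted p under 0.05). The fits took 4 libraries for footprints or RNA and 8 for their interaction. Earlier trials on simulated data had a smaller spread between replicates than these libraries, so they do not show how the tests perform here. With 2 against 2 the smallest exact permutation p is 0.33. Replicates differed by more than sampling noise (chi-square over degrees of freedom 4.24 to 7.38). Coding lengths came from GENCODE M21 (GRCm38), in which 19915 of 20661 genes matched by symbol and 614 by an older symbol. List shares sum raw counts of all members in the files. Alternatives were DESeq2 1.42.0, other scalings and filters, a stricter threshold, a replicate block and leaving out each library.

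The members and gene lists were chosen with earlier results of these data known. Named genes are the 20 largest shares, the 12 largest called rises and falls with groups apart and at least 10 CPM in the higher group, the 10 largest gains and losses of share, up to 4 members per list by level and by p and each list's extremes, and genes named by the study. The genes called in the interaction test were named after their values were seen. Use of amino acids, WT-shARF RNA and promoter sequence were not analysed here, and some genes that the rule names are not reported here.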

Additional observations from a re-analysis of the deposited data

How the results depend on the processing

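The footprint counts (1027 higher, 961 lower) were 627 and 523 with DESeq2, and all 1988 called genes kept their sign there. At an adjusted p under 0.01 they were 642 and 573. Leaving out 1 library gave 0 to 633 higher and 0 to 560 lower in edgeR, with 0 calls without either WT-shSCR replicate, where the prior degrees of freedom fell from 29.1 to 2.9. DESeq2 fits without 1 library, added after seeing the data, gave 412 and 213 or 433 and 246 without WT-shSCR replicate 1 or 2, and 297 and 189 or 277 and 193 without Arf-/- -shSCR replicate 1 or 2. The DESeq2 fits without 1 library gave an adjusted p to only 3405 to 7299 genes. In edgeR the prior degrees of freedom were infinite without either Arf-/- -shSCR replicate, so numbers of calls from fits without 1 library cannot be compared. Upper quartile scaling gave 901 and 1095. The RNA counts were 208 and 206 with DESeq2 and 191 and 190 at an adjusted p under 0.01, with 105 to 420 higher and 117 to 370 lower without 1 library. The interaction counts (10 and 12) were 68 higher with DESeq2, 83 and 40 with no filter on low counts, 19 lower with at least 10 counts in every library, 2 and 1 at an adjusted p under 0.01, and 3 to 13 higher and 3 to 40 lower without 1 library.

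Replicate numbers were shared only as numbers. Deviations of same-numbered libraries correlated at r = 0.069 for footprints and -0.151 for RNA. The replicate block gave 1082 and 993 footprint calls, 417 and 410 RNA calls and 11 and 14 interaction calls. A crossed block for RNA, added after seeing the data, gave 729 and 709.

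The ribosomal protein gain of 2.17 points was 2.34 with the 10 genes with the most footprints taken out of the total and 4.09 per coding length. The loss of other matrix proteins (-3.38 points) was -1.52 and -1.47. Without those 10 genes the differences for actin and its motors (-0.268), smooth-muscle type proteins (-0.0742) and intermediate filaments (-0.0164) changed sign, as did smooth-muscle type proteins (-0.0978) and oxidative phosphorylation (-0.0669) per coding length. The named genes whose footprint change turned sign were not called for footprints with all 4 libraries, though Zdhhc15 was called in the interaction test. Tagln was 0.013 with no filter, 0.058 and 0.068 (edgeR, DESeq2) without WT-shSCR replicate 1 and 0.0 and 0.014 without Arf-/- -shSCR replicate 1. Rps27l was 0.065 and 0.076 without WT-shSCR replicate 1 and 0.0 in DESeq2 without Arf-/- -shSCR replicate 1. Pttg1 was -0.002 and Zdhhc15 -0.023 without Arf-/- -shSCR replicate 1. Over the edgeR fits without 1 library the ranges were -0.083 to 0.058 for Tagln, -0.136 to 0.065 for Rps27l, -0.002 to 0.739 for Pttg1 and -0.023 to 1.692 for Zdhhc15. The causes were not tested. With 2 libraries per group, small changes of genes with few counts were not detectable.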
